A study of Mus musculus with 12 samples.

Results

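The genes described are 8 known feedback and target genes of the ERK pathway, namely Spry1, Spry2, Spry4, Dusp4, Dusp5, Dusp6, Etv4 and Etv5. The rule took them by symbol and used no measured value, though earlier results of these data were known when they were chosen, and all 8 were found among the 54352 gene symbols of the RNA-seq tables. For each gene, the mRNA level was read per transcript in both cell lines of the study, and the ChIP-seq peaks of 7 lists were collected from the gene body and 30 kb on each side (mm10). The study asked where Ctr9, a core subunit of the Paf1 complex (Paf1C) that travels with RNAPII, sits on chromatin in both cell types. From Ctr9 knockdown and enhancer reporters in mESCs, it also concluded that Paf1C positively regulates enhancers. Those experiments are not among the data used here. The lines are E14 embryonic stem cells of the mouse (mESCs) and NIH3T3, mouse embryonic fibroblasts. Ctr9-GFP, H3K27ac and mRNA were measured in both lines, and NELFA-GFP as well as the Ser5p and Ser2p forms of RNAPII in mESCs alone. The Ctr9-GFP cells of both lines carry GFP knocked in at the end of Ctr9 and are sorted pools, not clones, and the NELFA-GFP cells are a tagged mESC line whose NELFA was pulled down with the same anti-GFP antibody. RNAPII Ser5p was, by the study's account, also measured in the NELFA-GFP cells. The protocol gives the same medium for both lines, with 10% serum and LIF at 1000 U/ml, and names no inhibitor of the ERK pathway. Serum and LIF can themselves activate ERK. Every group is 1 library, so no test across replicates was possible, differences are given as sizes only, and counting intervals cover counting error only.

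The cell lines matched their labels. All 8 markers of mESCs were higher in mESCs by at least 2-fold on the log2(TPM + 1) scale, with Dppa5a (3190 TPM against 0.482 TPM) at the top and Pou5f1 at 1402 TPM against 0 TPM. All 8 fibroblast markers were higher in NIH3T3 cells, led by S100a4 (3337 TPM against 0.737 TPM). Of the lists for other cells of the early embryo, primitive endoderm (5 genes) summed to 8.96 TPM in mESCs and 53.5 TPM in NIH3T3 cells, and its most abundant gene over both lines was Pdgfra (0.312 and 49.1 TPM), which fibroblasts also express. In mESCs the sum of that list came mostly from Sox7 (6.04 TPM, against 0.0146 TPM in NIH3T3 cells) and Gata4 (2.21 and 2.85 TPM), and Sox17 and Gata6 were at 0.146 and 0.249 TPM. The primed or mesoderm list (4 genes) summed to 2.06 and 0.209 TPM, and the trophoblast list (3 genes) to 1.48 and 0.0447 TPM, with Eomes as the most abundant gene of both (1.38 TPM in mESCs and 0 TPM in NIH3T3 cells). The part of other cells in the values below was not tested.

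As background, FGF and other growth factors bind receptor tyrosine kinases, which act through adaptors, Ras, Raf and MEK to phosphorylate the kinases ERK1 and ERK2. Active ERK turns on genes that restrain the same pathway: Sprouty proteins (Spry1, Spry2, Spry4) block the signal at or above Raf, and the dual-specificity phosphatases Dusp4, Dusp5 and Dusp6 remove the phosphates from ERK, Dusp4 and Dusp5 in the nucleus and Dusp6 in the cytoplasm. Etv4 and Etv5 are ETS transcription factors that are induced by FGF signalling and carry its response to other genes. In mESCs, FGF4 made by the cells themselves activates ERK and moves them toward differentiation. NELF holds RNAPII near the start of genes, where RNAPII carries phosphates on serine 5 of its tail (Ser5p). Serine 2 phosphorylation (Ser2p) and Paf1C belong to elongating RNAPII, and H3K27ac marks active promoters and enhancers.

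Of the 8 genes, 4 were higher in mESCs by at least 2-fold (Spry1, Spry2, Spry4 and Etv5), 1 was higher in NIH3T3 cells (Dusp5), and 3 lay within 2-fold (Dusp4, Dusp6 and Etv4). The level of a gene was the TPM (transcript abundance scaled for transcript length and library size) of its most abundant transcript, and folds were judged on log2(TPM + 1). Across 12379 protein-coding genes with at least 1 TPM in at least 1 library, 23.8% were higher in mESCs and 20.0% in NIH3T3 cells by the same rule. The median log2 difference was 1.23 over the 8 genes and 0.13 over all genes tested. In bulk RNA, fewer cells with a transcript and less of it per cell cannot be told apart.

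**Figure D1:**
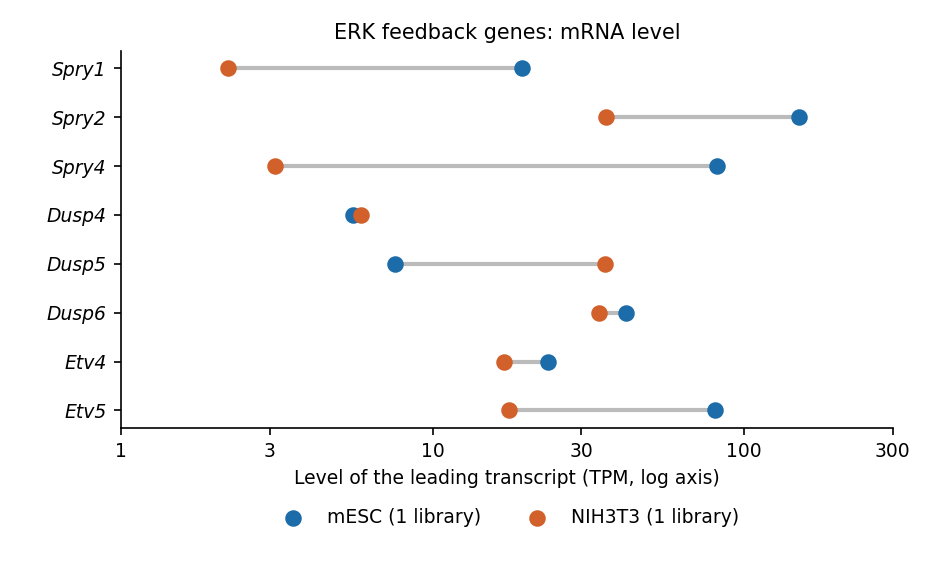
Levels of the 8 genes in mESCs and NIH3T3 cells, as TPM of the most abundant transcript on a log axis, with 1 point per library and a grey line joining the points of a gene. The widest gap is that of Spry4 (82.1 against 3.13 TPM), and Dusp5 is the gene whose NIH3T3 point lies well to the right (35.7 against 7.58 TPM).

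The Sprouty genes were all higher in mESCs. Spry4 stood at 82.1 TPM in mESCs and 3.13 TPM in NIH3T3 cells, a TPM ratio of 26.2. Its estimated counts were 8172 (95% exact Poisson interval 7996 to 8351) and 334 (299 to 372). Spry1 stood at 19.4 TPM against 2.2 TPM, a ratio of 8.80 between the leading transcripts. Over all transcripts of Spry1, the estimated counts were 1047 (985 to 1112) and 119 (99 to 142). Spry2 was at 149.6 TPM against 36.1 TPM, a ratio of 4.15, and its leading transcript was the highest of the 8 in both lines, although in NIH3T3 cells the summed transcripts of Dusp6 (52.5 TPM) and Etv4 (45.6 TPM) exceeded it. As a share of all estimated counts of a library, the log2 difference between the lines was 4.74 for Spry4 (95% counting interval 4.58 to 4.90), 3.27 for Spry1 (2.99 to 3.55) and 2.08 for Spry2 (1.99 to 2.16), so counting error was small beside each difference, while the spread between cultures is not known.

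The phosphatases split. Dusp5, which acts on ERK in the nucleus, was at 7.58 TPM in mESCs and 35.7 TPM in NIH3T3 cells, 4.71-fold higher in the latter, from 392 (354 to 433) and 1988 (1902 to 2077) estimated counts. Dusp6, the cytoplasmic ERK phosphatase, was at 41.8 and 34.3 TPM, and its log2 difference on the log2(TPM + 1) scale was 0.28. Dusp4 was at 5.55 and 5.88 TPM, and its log2 difference in estimated counts per library was -0.05 with a counting interval from -0.27 to 0.16. Dusp4 was the lowest of the 8 genes in mESCs and Spry1 the lowest in NIH3T3 cells.

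Of the Etv pair, Etv5 was at 80.3 TPM in mESCs and 17.6 TPM in NIH3T3 cells, a ratio of 4.58 for its leading transcript Etv5-201. Over all transcripts of Etv5 the difference was larger, with a summed level of 131.5 TPM against 17.6 TPM, and with 10633 (10432 to 10837) against 1553 (1477 to 1632) estimated counts. Etv4 was at 23.5 and 17.0 TPM. In descending order, the levels of the leading transcripts in mESCs were Spry2, Spry4, Etv5, Dusp6, Etv4, Spry1, Dusp5 and Dusp4, and those in NIH3T3 cells were Spry2, Dusp5, Dusp6, Etv5, Etv4, Dusp4, Spry4 and Spry1. The order depends on the choice of transcript: with TPM summed over transcripts, Etv4 moved up in both lines (68.8 TPM in mESCs and 45.6 TPM in NIH3T3 cells), Etv5 passed Spry4 in mESCs (131.5 TPM), and Dusp6 came first in NIH3T3 cells (52.5 TPM). Neighbours such as Spry4 and Etv5 in mESCs, or Etv5 and Etv4 in NIH3T3 cells, lie close in level of the leading transcript, and with 1 library their order cannot be checked. Among tested genes, Spry2 lay at the 95.5th percentile of level in mESCs and the 80th in NIH3T3 cells, and Spry4 at the 90.9th and the 24.5th.

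Transcripts differed between the lines within 4 genes. In mESCs, Spry1-203, which begins at the gene start, made up 92.3% of the TPM of Spry1 (19.4 TPM). In NIH3T3 cells it was at 0 TPM after rounding, and Spry1-201, which begins 11 bp further in, held the whole level of 2.2 TPM. These transcripts start so close together that the assignment of reads between them rests on the estimate of kallisto. Etv5-201 was at 80.3 TPM in mESCs and 17.6 TPM in NIH3T3 cells. Etv5-203, whose start lies 3205 bp inside the gene, added 51.2 TPM in mESCs, or 38.9% of the TPM of Etv5, and was at 0 TPM in NIH3T3 cells. This split too rests on the estimate of kallisto. The mESC lists of NELFA, RNAPII Ser5p and H3K27ac held no peak at the start of Etv5-203, and its use was not tested.

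Etv4 had the most transcripts, 12, of which 3 are protein coding. By TPM its most abundant transcript in both lines was Etv4-207 (23.5 and 17.0 TPM), a processed transcript of 882 bases with no coding sequence, whose start lies 13190 bp inside the gene. By estimated counts, which are not divided by length, coding transcripts led instead: Etv4-202 held 41.2% of the counts in mESCs and Etv4-201 held 59.9% in NIH3T3 cells, against 18.6% and 17.4% for Etv4-207. The coding transcripts were in opposite order in the lines: Etv4-202 was at 14.8 TPM in mESCs and 2.04 TPM in NIH3T3 cells, and Etv4-201 at 8.84 and 16.6 TPM. Etv4-202 and Etv4-201 share a start and are 2377 and 2395 bases long, so their order also rests on the estimate of kallisto. Etv4-209, another processed transcript, was at 16.2 TPM in mESCs and 0.492 TPM in NIH3T3 cells. With coding transcripts alone, the log2 difference of Etv4 turned from 0.45 to -0.15. At Dusp6, the full-length Dusp6-201 led in both lines with 64.4% and 65.3% of the TPM. The coding Dusp6-204 was at 5.75 TPM in mESCs and 10.4 TPM in NIH3T3 cells, and the processed Dusp6-203 at 17.1 and 7.88 TPM.

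**Figure D2:**
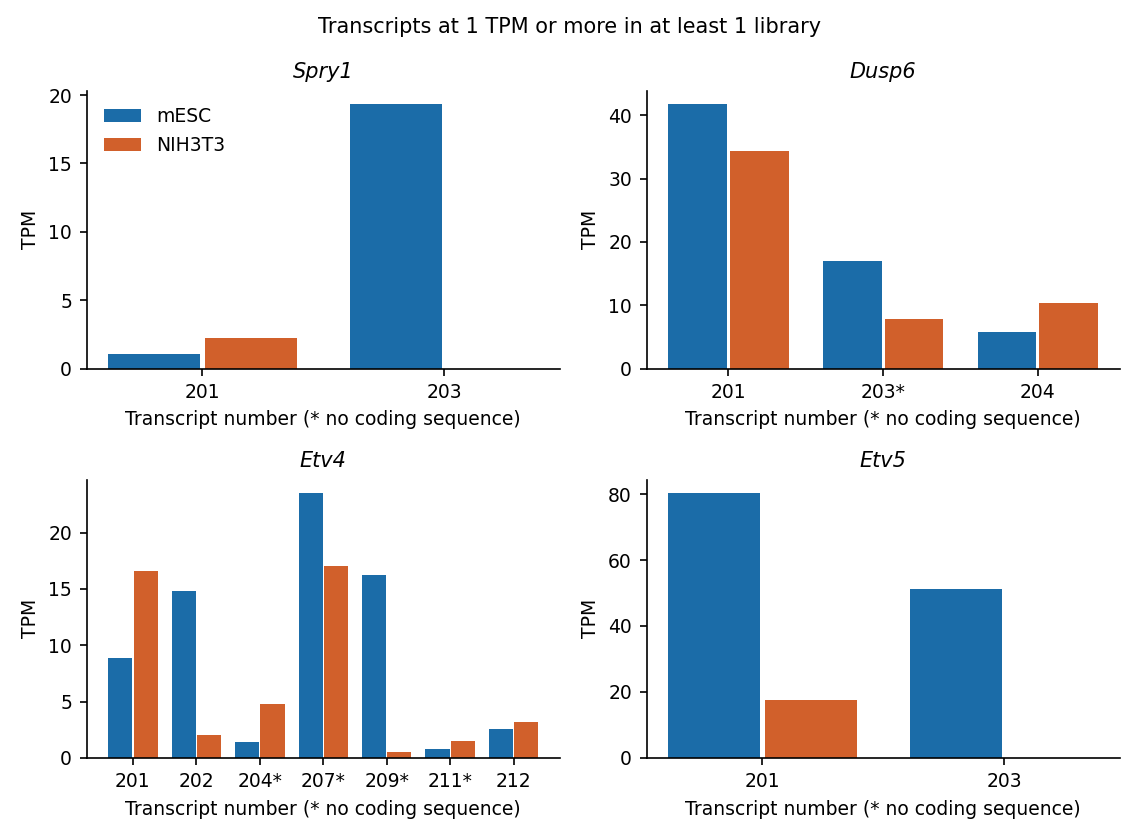
TPM of each transcript of Spry1, Dusp6, Etv4 and Etv5 that reached 1 TPM in at least 1 library, for mESCs and NIH3T3 cells (1 library each). An asterisk marks a transcript annotated without a coding sequence. Spry1-203 and Etv5-203 have bars for mESCs alone, and Etv4-201 and Etv4-202 are in opposite order in the lines. Levels of transcripts of the same gene rest on how kallisto assigns shared reads.

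The promoters of 5 of the 8 genes (Spry1, Spry2, Dusp5, Dusp6 and Etv5, the last with 2 entries) were matched in a RefSeq table for GRCm38.p6 that gives 250 bases before and 50 bases after each start. Each window shown has 280 bases and ends 30 bases past the RefSeq start. Windows are given for Dusp5, the gene higher in NIH3T3 cells, and for Dusp6, its relative at a like level in both lines. Those of Spry2 and Etv5, which were higher in mESCs, follow. The RefSeq start of the Etv5 window lies 149 bp inside the gene, so most of that window lies downstream of the gene start used elsewhere. For Dusp5 the RefSeq start is at 53529145 and the gene start at 53529109. Motifs in capitals are CArG boxes, the binding element of SRF, which works with ETS factors at many ERK-induced genes.
Dusp5 promoter (GRCm38.p6 chr19:53528895-53529174, plus strand): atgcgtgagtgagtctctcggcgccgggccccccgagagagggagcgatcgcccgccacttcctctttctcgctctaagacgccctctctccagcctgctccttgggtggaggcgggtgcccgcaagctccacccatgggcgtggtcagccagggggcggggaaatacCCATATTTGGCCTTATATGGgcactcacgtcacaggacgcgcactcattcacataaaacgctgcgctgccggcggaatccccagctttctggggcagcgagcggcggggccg
Dusp6 promoter (GRCm38.p6 chr10:99262981-99263260, plus strand): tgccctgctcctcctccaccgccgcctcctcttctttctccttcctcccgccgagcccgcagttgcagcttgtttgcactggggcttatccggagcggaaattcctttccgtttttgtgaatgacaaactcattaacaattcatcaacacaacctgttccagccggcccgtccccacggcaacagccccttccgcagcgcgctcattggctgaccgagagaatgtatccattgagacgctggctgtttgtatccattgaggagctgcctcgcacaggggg
Spry2 promoter (GRCm38.p6 chr14:105896790-105897069, minus strand): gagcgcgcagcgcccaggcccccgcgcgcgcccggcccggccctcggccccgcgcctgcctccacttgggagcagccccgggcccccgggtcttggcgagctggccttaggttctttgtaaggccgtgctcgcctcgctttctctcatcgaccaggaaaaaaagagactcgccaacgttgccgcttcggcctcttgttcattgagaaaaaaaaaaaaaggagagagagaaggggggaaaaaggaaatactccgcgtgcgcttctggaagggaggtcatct
Etv5 promoter (GRCm38.p6 chr16:22439541-22439820, minus strand): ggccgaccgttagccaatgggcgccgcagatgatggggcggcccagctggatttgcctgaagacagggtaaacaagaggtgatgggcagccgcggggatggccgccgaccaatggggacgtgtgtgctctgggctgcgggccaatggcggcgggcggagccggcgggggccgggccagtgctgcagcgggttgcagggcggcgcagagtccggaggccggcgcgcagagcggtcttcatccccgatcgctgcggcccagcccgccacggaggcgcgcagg
Only the promoter of Dusp5 held a CArG box among the 6 entries, and it held 2, back to back, whose first bases lie 82 and 72 bases upstream of the RefSeq start. A CArG box occurs in 1.63% of the 32851 promoters of the table. The ETS motifs CCGGAAG and CAGGAAG (8.86% and 13.3% of all promoters), the CRE motif TGACGTCA (1.79%), TATAAA (13.6%) and the AP-1 motif TGANTCA (7.81%), searched on both strands, did not occur in any of the 6 windows, which says nothing about binding. The AP-1 motif was added after values had been seen. The promoters were rich in CpG, with 19 to 37 CpGs in 300 bases against a median of 7 over the table.

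Peaks were found near every gene, but not in every list. Within 30 kb, mESC Ctr9 peaks were present at 7 of 8 genes (72 peaks, all but Dusp5), H3K27ac peaks at 6 (16 peaks, all but Spry1 and Dusp5), NELFA peaks at 5 (6 peaks), RNAPII Ser5p peaks at 5 (31 peaks) and RNAPII Ser2p peaks at 2, Spry2 and Spry4 (6 peaks). In NIH3T3 cells, Ctr9 peaks were present at 5 genes (32 peaks) and H3K27ac peaks at 7 (44 peaks, all but Spry1). The whole lists differ in length the same way, with 44748 Ctr9 peaks in mESCs and 22016 in NIH3T3 cells, and 19417 and 34241 H3K27ac peaks, so the peak totals of the lines are not compared. Of 21938 protein-coding genes, 56.8% had a mESC Ctr9 peak in a window drawn the same way, 61.0% H3K27ac, 19.0% NELFA, 22.2% RNAPII Ser5p, 13.0% RNAPII Ser2p, 38.5% NIH3T3 Ctr9 and 68.0% NIH3T3 H3K27ac. NELFA and RNAPII Ser5p, at 5 of 8 genes each, were above their share of all genes, and the H3K27ac counts were nearer to theirs. All 8 genes were expressed in both lines, while the 21938 genes include silent ones. Fold enrichment depends on the depth of each library, which the ChIP-seq lists do not give, so the strength of a peak is given by its fold enrichment and, for many, its percentile in its own list. Since the lists differ in length, neither is a measure of a difference between the lines.

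**Figure D3:**
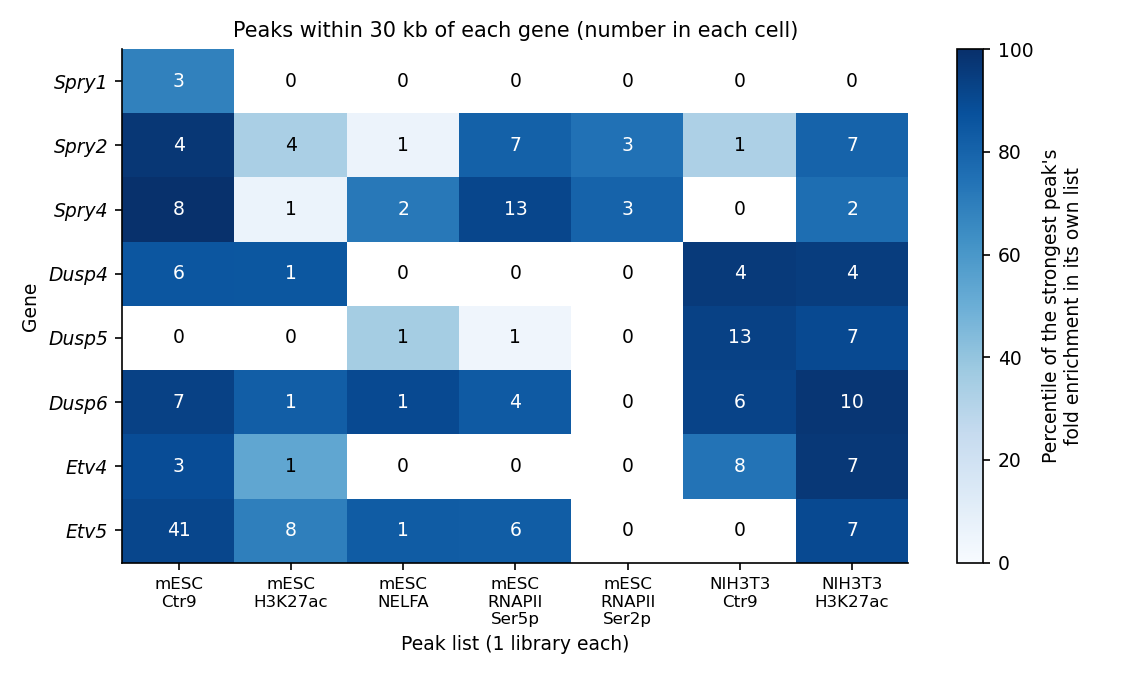
Number of peaks within 30 kb of each gene in each of the 7 lists (1 library each), with the colour giving the percentile of the strongest peak's fold enrichment in its own list (white, no peak). Etv5 has 41 Ctr9 peaks in mESCs and 0 in NIH3T3 cells, Dusp5 has 0 and 13, and Spry1 has peaks of mESC Ctr9 alone.

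At the start sites, the marks of early transcription were frequent. The start used for every list, also those of NIH3T3 cells, was that of the transcript with the highest TPM in mESCs. A summit within 1 kb of the start of the leading transcript was found for RNAPII Ser5p at 5 genes (Spry2, Spry4, Dusp5, Dusp6 and Etv5; 7.64% of all genes), for NELFA at 4 (the same without Spry2; 7.51%) and for RNAPII Ser2p at 0 (1.55%). In mESCs, H3K27ac had a summit there at 4 genes (Spry2, Spry4, Dusp4 and Etv5; 30.3%) and Ctr9 at 2 (Dusp6 and Etv5; 11.2%). The Ctr9 count in mESCs depended on the limits set, with 1 gene within 500 bp, 4 within 2 kb and 1 at a −log10 q of at least 5. In NIH3T3 cells, H3K27ac had a summit there at 7 genes (all but Spry1; 41.9%) and Ctr9 at 4 (Dusp4, Dusp5, Dusp6 and Etv4; 10.7%). For Etv4 the leading transcript is Etv4-207, so its NIH3T3 Ctr9 summit, 152 bp upstream of that start, lies deep in the gene. With any annotated start, Etv4 joined the genes with a mESC H3K27ac summit, which were then 5. NELFA summits lay close to the start, at +22 bp in Dusp6, +39 bp in Dusp5, +102 bp in Spry4 and +196 bp in Etv5, and RNAPII Ser5p summits at -2, +20, +181 and +103 bp in the same genes.

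Of the 72 mESC Ctr9 peaks, 12 had their summit upstream of the gene, 45 in the body (38 of them at Etv5) and 15 past the end, and of the 32 in NIH3T3 cells, 5 lay upstream, 9 in the body and 18 past the end. A Ctr9 summit in the 10 kb past the gene end was found at 6 genes in mESCs (38.2% of all genes) and at 4 in NIH3T3 cells (19.3%), and in the 10 kb before the start at 4 (18.6%) and 3 (9.44%). Ctr9 peaks covered at least 50% of the gene body at 3 genes in mESCs (Spry2, Spry4 and Dusp6), against 6.60% of tested genes, and at 1 in NIH3T3 cells (Dusp6), against 3.95%. The threshold of 50% was chosen after the values were seen. In mESCs, 9 of the 72 Ctr9 peaks near the 8 genes overlapped H3K27ac, a share near the 9.30% of all mESC Ctr9 peaks, and 4 of the 9 were among the 41 peaks at Etv5. That count fell to 4 where the summit had to lie inside the H3K27ac peak, and also to 4 where at least 50% of the Ctr9 peak had to be covered. In NIH3T3 cells 13 of 32 overlapped, against 21.7% of the list, and 5 of the 13 were at Dusp6 and 4 at Dusp5. Of the mESC Ctr9 peaks near these genes, 10 of 72 overlapped a NIH3T3 Ctr9 peak (17.8% of the whole list), and 12 of 32 in the other direction (39.1%). For H3K27ac, the counts were 9 of 16 mESC peaks (47.4% of the list) and 9 of 44 NIH3T3 peaks (24.8%).

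**Figure D4:**
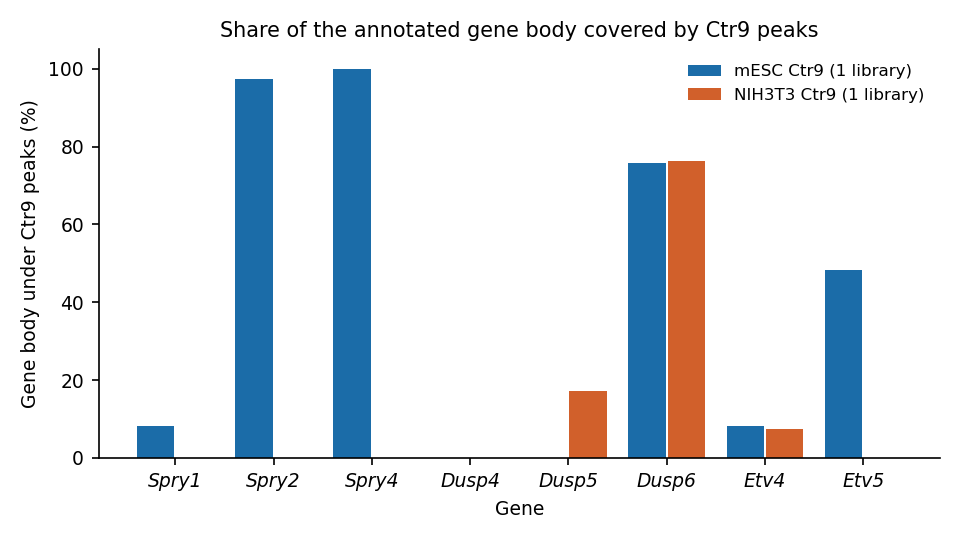
Share of each annotated gene body that lies under Ctr9 peaks, in mESCs and NIH3T3 cells (1 library each). Spry2 and Spry4 are covered over 97.2% and 100% in mESCs and 0% in NIH3T3 cells, Dusp6 is covered over about the same share in both lines, and Dusp4 is not covered in either.

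Spry4 (chromosome 18, minus strand, 15169 bp) had the strongest Ctr9 peak of the 8 genes. A mESC peak of 19037 bp with a fold enrichment of 16.2, at the 99.2nd percentile of its list, covered the entire gene and ran past its end, with the summit 14.7 kb from the start. NELFA had its strongest summit 102 bp (fold enrichment 5.96) and RNAPII Ser5p 181 bp (8.82) downstream of the start, and RNAPII Ser5p had 9 peaks in the gene body. The strongest RNAPII Ser2p summit lay 16915 bp from the start, past the end of the gene (fold enrichment 6.47). From start to end, the strongest summits of the lists thus ran NELFA, RNAPII Ser5p, Ctr9 and RNAPII Ser2p. A further 7 mESC Ctr9 peaks lay upstream, all within the long noncoding gene AC133601.1 on the opposite strand. AC133601.1 begins less than 237 bp upstream of the Spry4 start, so peaks at the start cannot be assigned to either gene alone. The only mESC H3K27ac peak near Spry4 was weak and 209 bp wide, at -692 bp (fold enrichment 2.59, the 5.89th percentile). In NIH3T3 cells there was no Ctr9 peak within 30 kb, although H3K27ac peaks stood at -237 bp (fold enrichment 11.1, the 72.9th percentile) and +598 bp (12.0, the 75.9th percentile).

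Spry2 (ENSMUSG00000022114, chr14:105891947-105896819, minus strand) spans 4873 bp. Its mESC NELFA peak was weak and lay 1864 bp upstream of the start (fold enrichment 3.40, the 5.86th percentile), not at the start as in Spry4. In mESCs, a Ctr9 peak of 4914 bp (fold enrichment 8.36) lay over the body with its summit in an exon 3762 bp from the start, and a second of 4758 bp (9.09, the 96.9th percentile) lay past the end. RNAPII Ser5p was strongest 839 bp from the start (6.51) and RNAPII Ser2p 6845 bp from it (5.91). The H3K27ac peaks of mESCs before the start were weak, with fold enrichments of 2.38 to 3.44 (the 2.77th to 33.9th percentile). In NIH3T3 cells, Spry2 had 7 H3K27ac peaks, the strongest at 13.6 (the 80.2nd percentile), and Ctr9 had 1 peak, 1237 bp upstream, of 228 bp (3.93). The body carried no NIH3T3 Ctr9 peak at a level of 36.1 TPM, while that of Dusp5 did at 35.7 TPM. Both genes have 1 transcript in the tables.

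Spry1 (ENSMUSG00000037211, chr3:37639947-37644598, plus strand) had no peak of H3K27ac in either line and none of NELFA, RNAPII Ser5p or RNAPII Ser2p in mESCs, where it was at 19.4 TPM. It had 3 mESC Ctr9 peaks, 1 in an exon 3319 bp from the start (fold enrichment 3.29) and 2 past the end at 5669 bp (4.21) and 7320 bp (3.37), both inside the gene model Gm43820, whose status awaits experiment (0.339 TPM in mESCs). Absence from a list means that no peak passed the q-value cutoff at an unknown depth, not that the mark is absent.

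Dusp6 (ENSMUSG00000019960, chr10:99263231-99267489, plus strand) carried Ctr9 in both lines in nearly the same places. The body was covered over 75.7% in mESCs and 76.2% in NIH3T3 cells, and 6 of 7 mESC peaks overlapped a NIH3T3 peak, as did 6 of 6 in the other direction. The mESC peak past the end, 2944 bp wide (fold enrichment 6.75, the 93.3rd percentile), and the NIH3T3 peak there, 2298 bp wide (5.50, the 83.6th percentile), lie over the noncoding genes Gm34921 and Gm48089, which were at 0 TPM. The strongest mESC NELFA peak of the 8 genes stood at its start (8.38, the 89.8th percentile). H3K27ac in mESCs was a peak of 1743 bp at -1557 bp (6.11, the 82nd percentile), and in NIH3T3 cells a peak of 2325 bp at -974 bp (30.8) and a peak of 3354 bp at +260 bp (25.0), at the 97.6th and 94.8th percentiles.

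Dusp5 (ENSMUSG00000034765, chr19:53529109-53542431, plus strand) had Ctr9 and H3K27ac peaks in NIH3T3 cells alone. In mESCs it had a NELFA peak at +39 bp (fold enrichment 4.55, the 35.5th percentile) and a RNAPII Ser5p peak at +20 bp (3.11, the 4.25th percentile), and no other. At its 7.58 TPM in mESCs, these start peaks were thus present without a Ctr9 peak in the window. In NIH3T3 cells, H3K27ac stood at -245 bp (19.7) and over 3941 bp with a summit at +183 bp (14.4). The pair of CArG boxes shown above lies in the gap between these peaks, under neither. Of 13 Ctr9 peaks, 3 lay in the body, which was covered over 17.2%, and 10 formed a run past the end out to 23.8 kb from the start. The antisense gene AC137853.2 overlaps the start, so start peaks cannot be assigned to either gene alone. The strongest Ctr9 peak (6.69, the 93rd percentile) met a H3K27ac peak 14.4 kb from the start (7.29), outside any annotated gene. The sequence around that H3K27ac summit is shown on the plus strand of GRCm38, with an AP-1 motif TGANTCA in capitals 43 bp from the summit, a motif found within 150 bp of 7.56% of all NIH3T3 H3K27ac summits.
Dusp5 element past the gene end (GRCm38 chr19:53543469-53543589): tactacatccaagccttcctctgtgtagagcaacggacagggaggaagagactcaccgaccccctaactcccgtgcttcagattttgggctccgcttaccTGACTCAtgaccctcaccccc

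**Figure D5:**
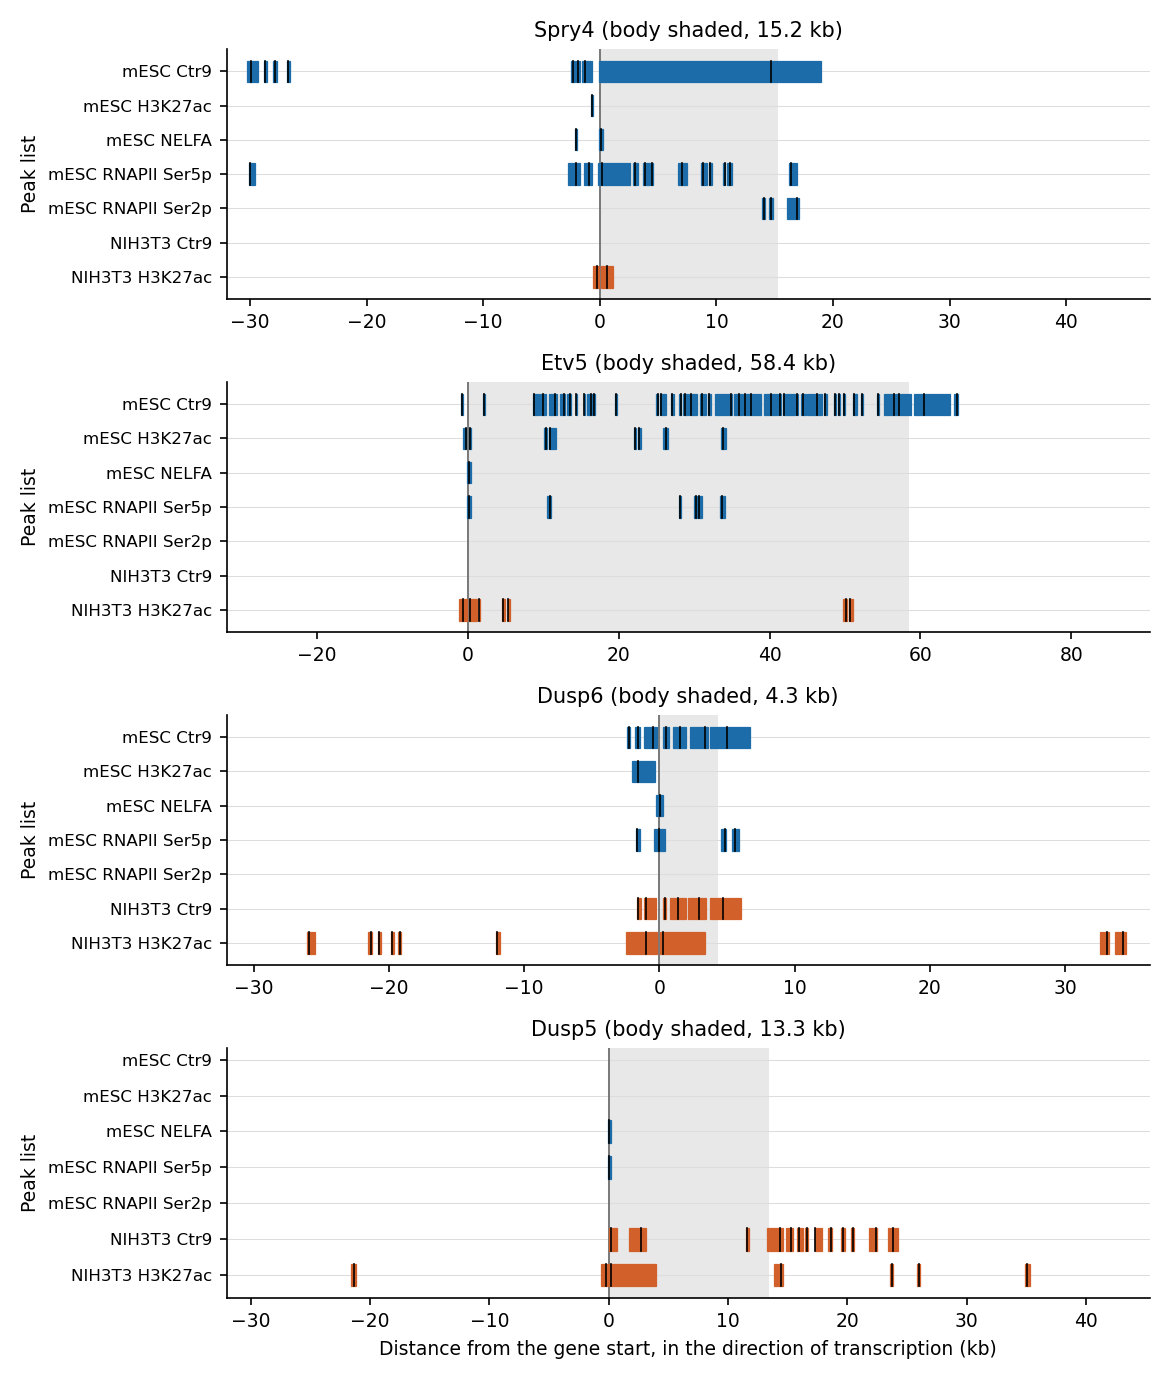
Peaks of the 7 lists around Spry4, Etv5, Dusp6 and Dusp5, by distance from the gene start in the direction of transcription (kb). Bars are peaks, black ticks are summits, the shaded area is the gene body, and colour gives the cell line (blue, mESCs; orange, NIH3T3 cells). Ctr9 fills Spry4 and much of Etv5 in mESCs alone, Dusp6 in both lines, and lies over and past Dusp5 in NIH3T3 cells alone.

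Dusp4 (ENSMUSG00000031530, chr8:34807297-34819894, plus strand) had no Ctr9 peak over its body in either line. All 6 mESC Ctr9 peaks lay 469 to 5610 bp past its end (fold enrichments 4.02 to 5.26). The end of the next gene, Tnks, faces that of Dusp4 across a gap of 6565 bp and Tnks was at 22.8 TPM in mESCs, so the peaks in the gap cannot be told apart between the genes. In NIH3T3 cells, a Ctr9 peak of 1329 bp stood 938 bp upstream of the start (7.75, the 96th percentile, the strongest NIH3T3 Ctr9 peak of the 8 genes) and met H3K27ac at -277 bp (25.0, the 94.8th percentile). The mESC H3K27ac peak lay at -288 bp (6.46, the 84.9th percentile).

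Etv5 (ENSMUSG00000013089, chr16:22381309-22439719, minus strand) had the most Ctr9 peaks, 41 in mESCs, of which 36 had their summit in an intron and 2 in an exon. They covered 48.2% of its 58411 bp, with a median width of 530 bp, a median fold enrichment of 3.85 and a median gap of 1082 bp between summits. The strongest (6.12, the 91.2nd percentile, 4759 bp wide) lay past the end, 60.4 kb from the start. NIH3T3 cells had no Ctr9 peak within 30 kb, at 17.6 TPM and with 7 H3K27ac peaks, the strongest at -643 bp (19.6, the 89.9th percentile) and +266 bp (18.6, the 88.8th). In mESCs, H3K27ac stood at the start (+306 bp, 5.05, the 69.5th percentile) and at 6 further places in the body, none of which had a NIH3T3 H3K27ac peak. An intronic element 10.9 kb from the start held H3K27ac (4.55, the 61.6th percentile) and Ctr9 (4.75), and RNAPII Ser5p had its strongest peak of the gene there (6.70 at 10927 bp, against 5.99 at the start). The element is shown around its H3K27ac summit on the plus strand of GRCm38, with no searched motif in these bases.
Etv5 intronic element (GRCm38 chr16:22428775-22428895): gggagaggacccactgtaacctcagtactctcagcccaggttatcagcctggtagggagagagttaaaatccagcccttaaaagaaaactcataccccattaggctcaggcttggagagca

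Etv4 (ENSMUSG00000017724, chr11:101769742-101785371, minus strand) had 3 mESC Ctr9 peaks, 1 in an intron (fold enrichment 3.21) and 2 past the end, 624 and 2038 bp from it (5.69 and 4.21). The end of Dhx8 (34.9 and 18.6 TPM) faces that of Etv4 across 2383 bp, so these peaks too cannot be told apart between the genes. In NIH3T3 cells, 8 Ctr9 peaks covered 7.40% of the body against 8.18% in mESCs, and 4 of them lay past the end. The strongest H3K27ac peak in the window lay 21.8 kb upstream in NIH3T3 cells (28.5, the 96.8th percentile), above that at the gene start (11.9 at +235 bp, the 75.7th percentile), and met a Ctr9 peak (3.87). No mESC H3K27ac peak lay there. The only mESC H3K27ac peak in the window lay at +270 bp from the gene start (4.11, the 53.1st percentile). The sequence of the upstream element around the summit, on the plus strand of GRCm38 and outside annotated genes, also held no searched motif.
Etv4 upstream element (GRCm38 chr11:101807115-101807235): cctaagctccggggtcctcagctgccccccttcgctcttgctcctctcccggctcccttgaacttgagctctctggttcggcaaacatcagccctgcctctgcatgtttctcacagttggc

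In the rest of the pathway, of 15 FGF ligands and receptors, 12 were tested: 4 were higher in mESCs and 5 in NIH3T3 cells by at least 2-fold, with a median log2 difference of 0.53. Fgf4, the FGF that mESCs make themselves, was at 146.3 TPM in mESCs and 0 TPM in NIH3T3 cells, and Fgf17 at 17.1 and 0.0539 TPM. Fgf7, a factor that mesenchymal cells send to epithelia, was at 0.102 and 168.4 TPM, and the receptor Fgfr2 at 0.922 and 4.91 TPM. Of 21 adaptor and Ras-ERK core genes, 4 were higher in mESCs, 5 in NIH3T3 cells and 12 within 2-fold (median 0.02). Among all tested protein-coding genes, 23.8% were higher in mESCs and 20.0% in NIH3T3 cells, so these 21 genes lay near the general shares. The adaptor Gab1 was at 97.9 and 3.11 TPM and the ERK-activated kinase gene Rps6ka1 at 48.3 and 0 TPM, while the phosphatase gene Ptpn11 (9.31 and 39.1 TPM) and the adaptor Frs2 (13.6 and 45.0 TPM) were higher in NIH3T3 cells.

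Of 11 other inhibitors, 10 were found and tested, and 2 were higher in mESCs, 3 in NIH3T3 cells and 5 within 2-fold (median -0.10). The shares of all tested genes, for this and the next lists, are 23.8% and 20.0%. Il17rd, a membrane inhibitor of FGF signalling also known as Sef, was at 22.7 TPM in mESCs and 2.79 TPM in NIH3T3 cells, and Rasal1, a Ras GTPase activator, at 1.57 and 0 TPM. Errfi1, an inhibitor of the EGF receptor, was at 4.54 and 46.0 TPM, and Spred3, a relative of the Sprouty proteins, at 1.95 and 7.58 TPM. Of 9 other Dusp genes, 8 were tested, with 2 higher in mESCs (Dusp1, 21.5 and 4.22 TPM, and Dusp9, 20.2 and 6.44 TPM) and 3 in NIH3T3 cells, among them Dusp10 (1.70 and 23.5 TPM) and Dusp7 (4.20 and 16.5 TPM), with a median of -0.59. Of 21 other ERK-responsive genes, 20 were tested, with 3 higher in mESCs, 11 in NIH3T3 cells and 6 within 2-fold (median -1.08). Fosl1, a subunit of AP-1, was at 0.287 TPM in mESCs and 106.1 TPM in NIH3T3 cells, Phlda1 at 6.85 and 113.7 TPM, and the transcription factor gene Ets1 at 0.196 and 37.4 TPM. The Eph receptor genes Epha4 (24.2 and 4.66 TPM) and Epha2 (71.2 and 22.9 TPM) were higher in mESCs.

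For each of the 8 genes, the gene with the most similar pattern was sought over 9 values, namely the level in both lines and the strongest fold enrichment within 30 kb in the 7 lists, among 12379 genes. Likeness was the Euclidean distance after each value was put on a log scale and divided by its SD over genes. The nearest gene to Spry1 was Ptp4a3, at a distance of 0.0693 (20.1 TPM in mESCs and 2.02 TPM in NIH3T3 cells), and that to Etv4 was Acd (0.256). Akap9 was nearest to Dusp4 (0.341), Kdm4c to Etv5 (0.390), Ptpa to Dusp6 (0.516) and E2f4 to Spry2 (0.728). The largest distances were those of Spry4 to Fzd5 (1.11) and of Dusp5 to Hsd17b7 (1.57). A list without a peak gives the same value for every gene that lacks one, and Spry1 had peaks of mESC Ctr9 alone. Its small distance may thus reflect shared absences, so distances do not show which gene has the rarer pattern.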

How the data were processed

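Processed files of 9 of the 12 samples were analysed, and the 3 input libraries were not used here. Peak lists (7) came from the authors' pipeline of Bowtie2 2.3.5.1, with mm10 as the genome and blacklisted regions left out, and MACS2 2.2.6, run per library without pooling at a q-value of 0.01. Each deposited list gives a score, the fold enrichment of the summit (a ratio to the local background) and −log10 p and q-values. The deposited score was not used for any result. The authors quantified RNA-seq with kallisto 0.46.1 against the transcripts of GENCODE M19. The 2 deposited tables give TPM and estimated counts for each transcript. Libraries were strand-specific; the strand setting of kallisto is not given in the sources used here, so overlapping genes may share reads.

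The estimated counts sum to 26400407 in mESCs and 28849497 in NIH3T3 cells over 137767 transcripts, while the ChIP-seq depth reached is unknown, since peak lists carry no read totals and the methods state only a target. The gene level was the highest TPM among transcripts, and a gene was called higher at a log2(TPM + 1) difference of at least 1. The 95% intervals are exact Poisson for counts rounded to whole numbers and Clopper-Pearson based for their ratios. Peaks were assigned when 1 bp or more fell in the window, and gene coordinates came from GENCODE M21. The genome and the RefSeq promoters were of GRCm38.p6, and 6 of 6 promoters read the same in both. All 8 genes and 2 genes per direction of each pathway list, plus its most abundant gene, were named by rule. The genes and lists were chosen with earlier results of these data known. Etv4-207, the elements shown and the 50% cover threshold were singled out after their values were seen. Computations used Python 3.11.15, pandas 2.3.3, NumPy 2.4.6, SciPy 1.17.1 and samtools 1.23.1, with edgeR 4.0.16 (TMM) and DESeq2 1.42.0 (size factors) for scaling of the estimated counts alone. The functions were tested on simulated data, and 6 of 6 checks passed. Proteins were not analysed here.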

Additional observations from a re-analysis of the deposited data

How the results depend on the processing

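No paired analysis was possible because each group has 1 library, and no replicate could be left out. Of 100 repeats of 26 counts under other settings, 94 stayed within 1.5 times. The mESC Ctr9 summits within 1 kb of the start, at 2 genes, were at 1 gene with 500 bp, at 4 with 2 kb and at 1 with a −log10 q of at least 5. RNAPII Ser2p summits at the start went from 0 genes to 1 with 2 kb. The mESC Ctr9 peaks that overlap H3K27ac went from 9 to 4 with the summit inside, and to 4 with at least 50% of the peak covered. Of 48 log2 differences of single genes, 47 kept their direction and their side of 2-fold under summed TPM, a pseudocount of 0.1, counts scaled by library total, TMM, median-of-ratios factors or coding transcripts alone. The exception was Etv4, at -0.15 with coding transcripts alone, a setting chosen after seeing the data, because its leading transcript is noncoding. Many of these repeats could hardly differ. Spry2, Spry4, Dusp4 and Dusp5 have 1 transcript each, so summing left their values unchanged, and coding transcripts alone changed only Etv4. The median-of-ratios factors were 1 in both lines. The 47 are thus not separate checks. The difference of Etv5 went from 2.13 to 2.84 with summed TPM. As shares of estimated counts in place of TPM, leading transcripts held 82.3% and 76.7% of Dusp6 and 18.6% and 17.4% of Etv4 in mESCs and NIH3T3 cells, and 62.2% of Etv5 in mESCs. Peaks missing from a list may lie under the cutoff of a shallow library.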
